A study of Rattus norvegicus with 9 samples.

Results

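The carbonic anhydrases described here are Car2, Car3 and Car4 in rat lung under 2 ways of breathing and 2 oxygen levels. They were taken as every probe set, the group of short probes that reads 1 transcript, that the array's annotation gives to these 3 genes or to their older symbols Ca2, Ca3 and Ca4. That rule found 5 probe sets among the 8740 that were not controls, and 3 genes among the 4736 with a symbol of their own. The genes were selected on measured values: the proposal to describe them was made with their group levels in these same arrays known, so the group differences of the 3 genes are given as a description, with no test. All 5 probe sets passed the filter on low signal, which kept 5244 probe sets. The one nearest to the filter's limit of 112.1 intensity units was that of Car3, with group means from 228.9 to 1191.

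Total RNA of lung tissue was read on 9 oligonucleotide arrays. The rats breathed spontaneously with 21% oxygen, breathed spontaneously with 100% oxygen, were mechanically ventilated with 21% oxygen or were mechanically ventilated with 100% oxygen. Each of the 4 groups held 2 samples, lettered a and b, and sample b of mechanical ventilation with 100% oxygen was read on 2 arrays, whose mean is used as 1 sample. The labels give no strain, sex, age, duration of ventilation or ventilator setting, nor do they state whether a and b are different animals. Errors and p-values therefore cover only the spread among these samples, which may be technical.

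Intensities were used on the linear scale as deposited, where 2% trimmed means of the arrays lay between 800.5 and 801.1. Between 18.4% and 19.9% of an array's values were at or below 0, and the number of arrays limits the precision. The 99th percentile of signal was 7111 to 8352 on the 3 arrays of mechanical ventilation with 100% oxygen and 9934 to 14547 on the other arrays. The description of 4 arrays carries a line for a lot batch that names no lot. It stands on both arrays of spontaneous breathing with 21% oxygen and on 2 of the 3 arrays of mechanical ventilation with 100% oxygen. All arrays of the other 2 groups lack it, so the line follows the groups except within the repeated sample, whose 2 arrays differ in it. Lung markers were bright in all groups: the surfactant protein gene Sftpc had means of 12722, 7840, 8518 and 3902 in the order in which the groups were named above.

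Carbonic anhydrases are zinc enzymes that interconvert carbon dioxide and bicarbonate, releasing or taking up a proton. In the lung they speed the release of carbon dioxide from blood to air. Car4 is held on the outer face of the cell membrane by a glycolipid anchor and is known from the capillary endothelium of the lung, where it faces the plasma. Car2 is a fast cytosolic enzyme of red cells and of many epithelia. Car3 is a cytosolic enzyme of low hydratase activity, abundant in slow skeletal muscle, fat and liver. In the current rat gene table Car2 and Car3 are neighbouring protein-coding genes on chromosome 2, and Car4 lies on chromosome 10.

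Each of the 3 genes ordered the groups in its own way. The brighter Car4 probe set was highest in spontaneous breathing with 21% oxygen and lowest in spontaneous breathing with 100% oxygen. The brighter Car2 probe set had the reverse of that order over all 4 groups. Car3 was highest in spontaneous breathing with 100% oxygen and lowest in mechanical ventilation with 100% oxygen. Because a bulk sample is read, fewer cells of a type and less RNA per cell cannot be told apart for any of these levels.

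**Figure D1:**
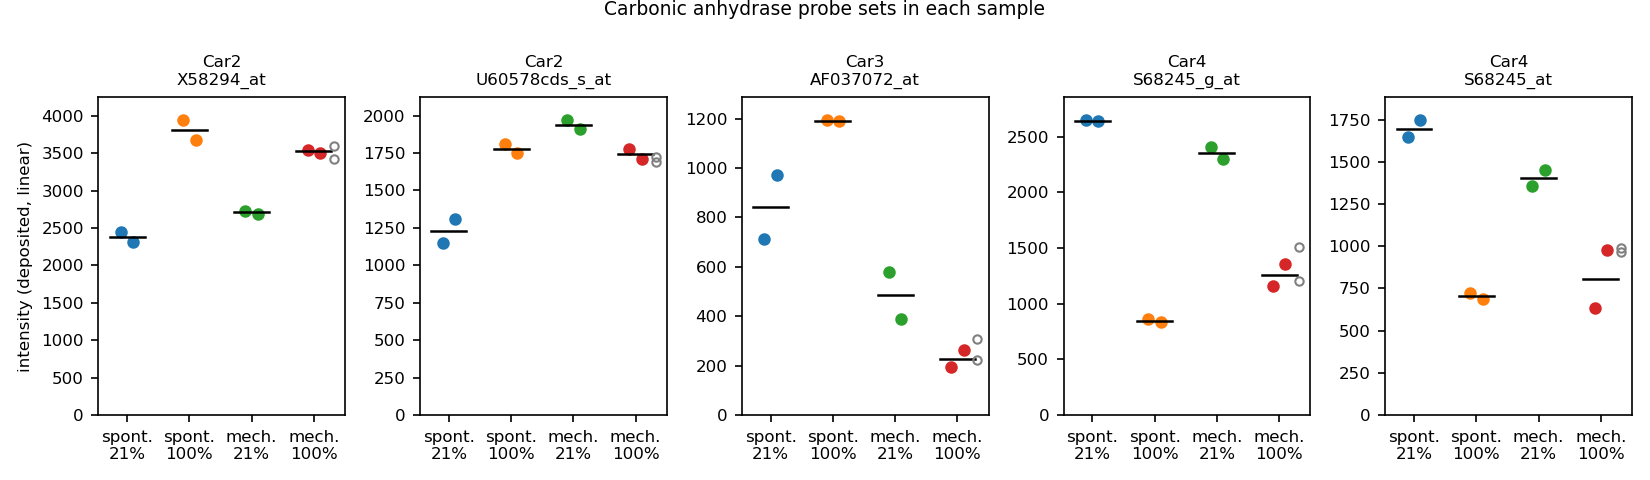
Intensity of the 5 probe sets of Car2, Car3 and Car4 on the linear scale of the deposited values (y axis, from 0), in the 4 groups (x axis). Each dot is a sample, the black line is the mean of the 2 samples of a group, and the grey open circles are the 2 arrays of the sample that was measured on both. The samples of Car4 with 100% oxygen all lie below those with 21% oxygen on both of its probe sets.

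Car4 is described first because it is the form of the lung capillary wall. The window around its start site was the single promoter of the 3 genes in the RefSeq table used, and it is shown because Car4 spans the widest range of the genes after Car3 and its samples separate by oxygen level. It lies at chr10:70325108-70325407 on the plus strand of GRCr8, from 250 bases before the start site to 50 bases after the first base, and 59.7% of its 300 bases are G or C. Capitals mark matches to TATAAA and to ACGTG, the core read by hypoxia-inducible factors, on either strand, where CACGT is ACGTG read on the other strand.
Car4 promoter: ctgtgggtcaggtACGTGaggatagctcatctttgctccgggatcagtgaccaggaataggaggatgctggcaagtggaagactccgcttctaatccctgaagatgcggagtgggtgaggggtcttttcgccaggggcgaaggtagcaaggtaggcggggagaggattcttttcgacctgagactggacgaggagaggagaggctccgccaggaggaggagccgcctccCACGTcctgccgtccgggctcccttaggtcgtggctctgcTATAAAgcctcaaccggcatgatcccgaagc
The search covered both strands for 4 motifs. TATAAA occurred once, 20 bases past the start site. ACGTG occurred 237 bases before the start site on the plus strand and 21 bases before it on the other strand. Neither GGGCGG, the core of the Sp1 site, nor TGACNNNGC, the core of the antioxidant response element, was found in this window. Of 33469 promoters of the same length, 14.2% held TATAAA, 19.3% ACGTG, 33.1% GGGCGG and 12.1% TGACNNNGC. These matches describe letters in a window, and the arrays did not measure binding there.

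Car4 was read by 2 probe sets, S68245_g_at and S68245_at, which come from 1 sequence record and so are not independent. S68245_g_at read 2646 and 2639 in spontaneous breathing with 21% oxygen, 858.1 and 834.5 in spontaneous breathing with 100% oxygen, 2412 and 2297 in mechanical ventilation with 21% oxygen, and 1159 and 1358 in mechanical ventilation with 100% oxygen. No 2 groups overlapped on this probe set, and the samples with 100% oxygen were lower than any with 21% oxygen. Its group means were 2642 ± 4.48, 846.3 ± 16.7, 2354 ± 81.1 and 1258 ± 140 (SD, n = 2 each). S68245_at read 1650 and 1746, then 721.8 and 690.1, then 1356 and 1454, then 636.5 and 979.1 in the same order. Here the 2 groups with 100% oxygen overlapped, while every other pair of groups stood apart. Over the 8 samples the 2 probe sets had a Pearson r of 0.956, a description of probes to 1 transcript on shared arrays.

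In spontaneous breathing Car4 was lower with 100% than with 21% oxygen by −1.60 ± 0.12 (log2 of the intensity plus 40, ± SE from the limma fit) on S68245_g_at, a ratio of mean intensities of 0.320, and by −1.22 ± 0.19 on S68245_at. In mechanical ventilation the same oxygen difference was −0.89 ± 0.12 and −0.80 ± 0.19. Ventilation at 21% oxygen went with slightly lower Car4, −0.16 ± 0.12 and −0.27 ± 0.19. At 100% oxygen ventilation went with higher Car4 on S68245_g_at, 0.54 ± 0.12, while S68245_at gave 0.15 ± 0.19 with overlapping samples. The sample read on 2 arrays gave S68245_g_at values of 1204 and 1511, which differ by 0.32 on the log2 scale. With the lot line as a block the oxygen difference in spontaneous breathing was −1.47 and the ventilation difference at 21% oxygen was −0.03. The arrays without the line hold a single array of mechanical ventilation with 100% oxygen. On them alone, the oxygen difference in mechanical ventilation was −0.94 and the ventilation difference at 100% oxygen 0.49. The fit with the block gave the same values, so these are not a second check.

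Endothelial markers were mostly called lower, as Car4 was lower, with oxygen in spontaneous breathing, and were called in numbers nearer to the share over all probe sets with oxygen in mechanical ventilation. Of 20 listed genes 10 were on the array and 9 were tested. This list and the other marker lists below were chosen with earlier results of these data known, so their counts are descriptions. With oxygen in spontaneous breathing 0 passed the test as higher and 6 as lower at an adjusted p under 0.05 (limma, Benjamini-Hochberg over all tested probe sets), against 7.06% higher and 9.71% lower of all tested probe sets. With the lot line as a block 2 were called lower. The list's median difference was −1.03, against −0.05 over all tested probe sets. With oxygen in mechanical ventilation, where Car4 was again lower, 3 of the 9 were called higher and 0 lower, against 20.7% and 14.4% of all probe sets, with medians of 0.15 and 0.14. Summed intensities of the 10 genes were 21924 to 25509 in spontaneous breathing with 21% oxygen, 12006 to 12192 in spontaneous breathing with 100% oxygen, 13846 to 15036 in mechanical ventilation with 21% oxygen and 17594 to 19848 in mechanical ventilation with 100% oxygen. None of the 10 was at or below 0 in all samples, and the part of endothelial content in the Car4 levels was not tested.

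Ace, the angiotensin-converting enzyme of the capillary surface, had means of 5364 ± 210, 2298 ± 243, 2384 ± 39.8 and 4775 ± 29.0 in the group order used above (SD, n = 2). It fell with oxygen in spontaneous breathing, −1.21 ± 0.11 with an adjusted p of 0.00067, and rose with oxygen in mechanical ventilation, 0.99 ± 0.11 with an adjusted p of 0.00086. Car4 was lower with oxygen in both. Kdr, the main receptor for vascular endothelial growth factor, fell with oxygen in spontaneous breathing, −1.34 ± 0.22 (adjusted p of 0.0066, and 0.077 with the lot line as a block). In mechanical ventilation its oxygen difference was 0.10 ± 0.22. Pecam1, an adhesion protein of endothelial junctions, fell by 0.84 ± 0.18 with oxygen in spontaneous breathing, with an adjusted p of 0.019. That call was lost with the lot line as a block (adjusted p of 0.25) and without sample a of spontaneous breathing with 21% oxygen (0.086) or either sample with 100% oxygen (0.070 and 0.083).

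Ventilation at 21% oxygen called 0 of the 9 endothelial genes higher and 2 lower, against 7.00% and 7.49% of all probe sets. There Ace fell by 1.16 ± 0.11 with an adjusted p of 0.00097, beside a Car4 difference of −0.16. Ventilation at 100% oxygen called 4 higher and 0 lower, against 16.6% and 10.4%, and the 4 became 2 under cyclic loess scaling and without sample a of spontaneous breathing with 100% oxygen. Ace rose by 1.05 ± 0.11 in that comparison, with an adjusted p of 0.0013. Kdr rose by 1.02 ± 0.22 with an adjusted p of 0.014, a call lost without sample a of spontaneous breathing with 100% oxygen (0.055), without sample b of mechanical ventilation with 100% oxygen (0.056) and under cyclic loess scaling (0.051). The ventilation comparisons share their samples with the oxygen comparisons, so they are not separate evidence.

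**Figure D2:**
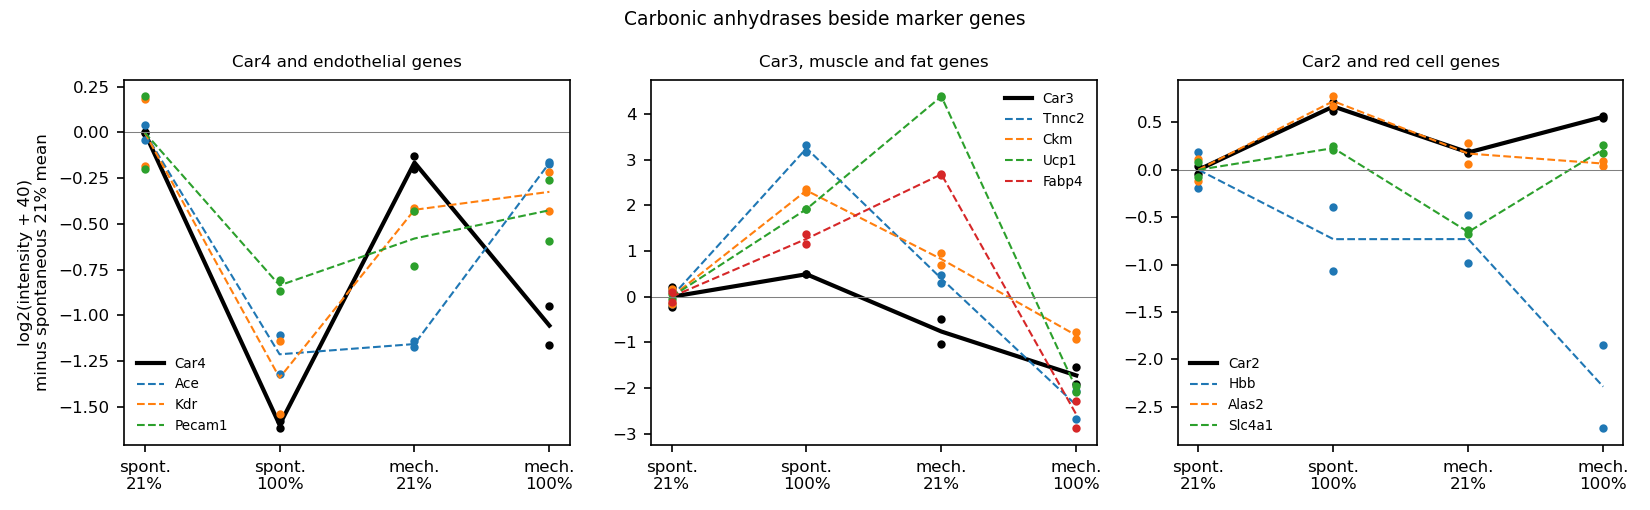
Log2 level relative to the mean of spontaneous breathing with 21% oxygen (y axis) in the 4 groups (x axis), with 1 point per sample and lines that join group means. Car4 is shown with Ace, Kdr and Pecam1, Car3 with the muscle genes Tnnc2 and Ckm and the fat genes Ucp1 and Fabp4, and Car2 with Hbb, Alas2 and Slc4a1. Ucp1 and Fabp4 peak in mechanical ventilation with 21% oxygen, where Car3 lies below its level in spontaneous breathing.

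Car2 was read by X58294_at and U60578cds_s_at, which do not show the same pattern. X58294_at read 2452 and 2311 in spontaneous breathing with 21% oxygen, 3937 and 3680 in spontaneous breathing with 100% oxygen, 2726 and 2690.0 in mechanical ventilation with 21% oxygen, and 3547 and 3507 in mechanical ventilation with 100% oxygen. The 4 groups stood apart, with both groups on 100% oxygen above both on 21%. The means were 2382 ± 99.7, 3809 ± 181, 2708 ± 25.2 and 3527 ± 28.3 (SD, n = 2). U60578cds_s_at read 1146 and 1307, 1806 and 1749, 1967 and 1910, and 1780 and 1707 in the same order. On that probe set the group lowest on both, spontaneous breathing with 21% oxygen, stood apart from the other 3, and mechanical ventilation with 21% oxygen was the highest. Its samples of spontaneous and mechanical breathing with 100% oxygen overlapped. The Pearson r between the probe sets was 0.565 over the 8 samples.

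With oxygen in spontaneous breathing both Car2 probe sets were higher, by 0.67 ± 0.11 on X58294_at, a ratio of means of 1.60, and by 0.52 ± 0.12 on U60578cds_s_at. With oxygen in mechanical ventilation they went opposite ways, 0.38 ± 0.11 and −0.15 ± 0.12, so the array gives no single direction for Car2 there. Ventilation at 21% oxygen went with 0.18 ± 0.11 and 0.65 ± 0.12, both higher and unequal in size. At 100% oxygen the ventilation differences were −0.11 ± 0.11, with samples apart, and −0.03 ± 0.12, with samples overlapping. The 2 arrays of the repeated sample differed by −0.07 and 0.03 on the log2 scale, under the median absolute difference of 0.11 over all tested probe sets. With the lot line as a block the oxygen difference of X58294_at in spontaneous breathing was 0.62. Within the arrays that lack the line, with a single array of mechanical ventilation with 100% oxygen, it was 0.40 in mechanical ventilation.

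Few red cell genes are on this array, and their summed level, carried by Hbb and Alas2, ordered the groups otherwise than Car2. Of 11 listed genes 4 had a probe set, all tested, and their summed intensity was 22584 to 26100 in spontaneous breathing with 21% oxygen, 18827 to 24409 with 100% oxygen, 15542 to 20236 in mechanical ventilation with 21% oxygen and 10052 to 11997 with 100% oxygen. None of the 4 was at or below 0 in all samples. Hbb, a beta globin, had means of 17400 ± 3266, 10658 ± 3501, 10534 ± 2615 and 3737 ± 1655 (SD, n = 2), lowest where Car2 was second highest on X58294_at. It fell with oxygen in mechanical ventilation, −1.56 ± 0.33 (adjusted p of 0.0093, and 0.17 with the lot line as a block). Alas2, the red cell enzyme that opens heme synthesis, rose with oxygen in spontaneous breathing by 0.72 ± 0.13. Its adjusted p was 0.010, and 0.11 with the lot line as a block. In mechanical ventilation its oxygen difference was −0.11 ± 0.13. Slc4a1, also on this list, had means of 849.8, 1001, 523.7 and 996.9 in the same order. Its samples with 100% oxygen were all above those with 21%, as on X58294_at of Car2. It rose with oxygen in mechanical ventilation by 0.87 ± 0.13 (limma, adjusted p of 0.0026). The list's calls higher and lower were 0 and 1 for ventilation at 21% oxygen, 0 and 2 at 100% oxygen, 1 and 0 for oxygen in spontaneous breathing, and 1 and 1 in mechanical ventilation. Over all probe sets the shares were 7.00% and 7.49%, 16.6% and 10.4%, 7.06% and 9.71%, and 20.7% and 14.4%, so for 4 genes these counts lie near the background. The 1 lower for ventilation at 21% oxygen became 0 without sample b of spontaneous breathing or either ventilated sample, and with the lot line as a block. The 2 lower at 100% oxygen became 0 without sample b of spontaneous breathing or sample a of mechanical ventilation, and 1 without sample b of the latter. The 1 higher for oxygen in spontaneous breathing became 0 without sample a with 21% oxygen. The 1 lower in mechanical ventilation became 0 without sample b with 21% or sample a with 100% oxygen. The part of red cell content in the Car2 levels was not tested.

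Car3 was read by 1 probe set, AF037072_at,. It read 713.7 and 974.1 in spontaneous breathing with 21% oxygen, 1193 and 1189.7 in spontaneous breathing with 100% oxygen, 580.4 and 389.7 in mechanical ventilation with 21% oxygen, and 192.9 and 264.9 in mechanical ventilation with 100% oxygen. The groups did not overlap, and every ventilated sample was below every spontaneously breathing one. The means were 843.9 ± 184, 1191 ± 2.33, 485.0 ± 135 and 228.9 ± 50.9 (SD, n = 2). The sample read on 2 arrays gave 307.2 and 222.6, a difference of −0.40 on the log2 scale that lies near the 90th percentile of 0.41 over all tested probe sets.

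At 100% oxygen Car3 was lower with ventilation by −2.22 ± 0.24 on the log2 scale, a ratio of means of 0.192. At 21% oxygen the ventilation difference was −0.76 ± 0.24. With oxygen Car3 was higher in spontaneous breathing, 0.49 ± 0.24, and lower in mechanical ventilation, −0.96 ± 0.24. With the lot line as a block these values moved more than those of the other 2 genes. Between the 2 arrays of the repeated sample, which differ in the line, Car3 differed by −0.40 and S68245_g_at of Car4 by 0.32. With the line as a block the oxygen difference in spontaneous breathing was 0.0046, and the ventilation differences were −1.25 at 21% oxygen and −1.83 at 100% oxygen. The arrays that lack it hold a single array of mechanical ventilation with 100% oxygen. Within them the oxygen difference in mechanical ventilation was −0.57. Without sample a of spontaneous breathing with 21% oxygen the oxygen difference there was 0.28, and without sample b of mechanical ventilation with 21% oxygen the ventilation difference there was −0.50.

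Skeletal muscle genes were called in the direction of the Car3 difference in 3 of the 4 comparisons. Of 23 listed genes 20 were on the array and 16 were tested. Oxygen in spontaneous breathing called 10 of the 16 higher and 0 lower, against 7.06% and 9.71% of all probe sets, with a median of 1.30. The 10 became 6 without sample a of spontaneous breathing with 100% oxygen and 6 with the lot line as a block. Ventilation at 100% oxygen called 0 higher and 10 lower, against 16.6% and 10.4%, with a median of −2.00. Oxygen in mechanical ventilation called 1 higher and 9 lower, against 20.7% and 14.4%, with a median of −0.79; with the lot line as a block these were 0 and 6. Ventilation at 21% oxygen called 3 higher and 0 lower, against 7.00% and 7.49%, with a median of 0.02, while Car3 was lower there. The 3 became 1 without sample b of either group and 0 with the lot line as a block. The summed intensity of the 20 genes was 7163 to 7356 in spontaneous breathing with 21% oxygen, 29598 to 30636 with 100% oxygen, 9736 to 9792 in mechanical ventilation with 21% oxygen and 4026 to 4046 with 100% oxygen. Cacna1s, the calcium channel of the muscle membrane, and Chrna1, a subunit of the muscle acetylcholine receptor, were at or below 0 in all 8 samples.

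Tnnc2, the troponin C of fast muscle, had means of 372.4 ± 60.1, 3869 ± 276, 501.8 ± 45.9 and 41.2 ± 24.6 (SD, n = 2). It rose with oxygen in spontaneous breathing by 3.25 ± 0.24 (adjusted p of 0.00025) and fell with ventilation at 100% oxygen, −5.62 ± 0.24 (adjusted p of 5.3e-06). Ckm, the creatine kinase of muscle, had means of 942.3 ± 157, 4858 ± 111, 1696 ± 225 and 504.1 ± 40.4. It rose with oxygen in spontaneous breathing by 2.33 ± 0.16, with an adjusted p of 0.00021. Myl11, a regulatory light chain of fast muscle myosin, had means of 625.0 ± 98.4, 3758 ± 162, 459.7 ± 10.0 and 122.7 ± 51.5. These 3 genes span a wider range over the groups than Car3 does. The tested genes Myh4, Pvalb, Pygm, Mybpc2 and Tnni1, a troponin of slow muscle, are named after their values were seen. They passed in no contrast. Pgam2, named likewise, rose with oxygen in mechanical ventilation by 0.73 ± 0.23 (limma, adjusted p of 0.041), where Car3 was lower. The part of muscle content in the Car3 levels was not tested.

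The summed level of fat genes was highest in mechanical ventilation with 21% oxygen, where Car3 was lower than in spontaneous breathing, but the fat genes did not all share that order. Of 15 listed genes 13 were on the array and 10 were tested. Ventilation at 21% oxygen called 6 higher and 1 lower, against 7.00% and 7.49% of all probe sets, and oxygen in spontaneous breathing 5 and 2, against 7.06% and 9.71%. Ventilation at 100% oxygen called 2 and 5, against 16.6% and 10.4%, and oxygen in mechanical ventilation 0 and 6, against 20.7% and 14.4%. With the lot line as a block the 6 became 3, the 5 of oxygen in spontaneous breathing became 2, and the 5 of ventilation at 100% oxygen became 3. That last 5 was also 3 without sample b of spontaneous breathing or sample a of mechanical ventilation with 100% oxygen. The 5 of oxygen in spontaneous breathing became 1 without sample a of that breathing with 100% oxygen, and 2 without its sample b or without sample a with 21% oxygen. Their summed intensity was 13578 to 13812 in spontaneous breathing with 21% oxygen, 13831 to 14108 with 100% oxygen, 28273 to 29636 in mechanical ventilation with 21% oxygen and 11038 to 12487 with 100% oxygen. Ucp1, the uncoupling protein of brown fat, had means of 259.6 ± 16.4, 1093 ± 7.99, 6213 ± 48.3 and 34.5 ± 4.79 (SD, n = 2), and rose with ventilation at 21% oxygen by 4.38 ± 0.15, with an adjusted p of 6.7e-06. Fabp4, a fatty acid carrier of fat cells, had means of 500.9 ± 58.8, 1263 ± 148, 3422 ± 49.2 and 55.4 ± 31.3. Car3 had means of 485.0 and 228.9 in the last pair of groups, a ratio of 0.472. Lep, the gene of leptin, had its highest mean in spontaneous breathing with 21% oxygen, 3328, and passed in none of the 4 comparisons. The lipases Lipe and Lpl, named after their values were seen, also had their highest means there, 1964 and 4933. Plin1 and Gpd1 were at or below 0 in all 8 samples. The part of fat in the Car3 levels was not tested.

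Other cell markers moved between the groups as well. T lymphocyte genes, of which 11 of 14 were on the array and 9 were tested, summed to 33406 to 35101 in mechanical ventilation with 21% oxygen and to between 2094 and 3103 in all other samples. With ventilation at 21% oxygen 9 of the 9 were called higher, against 7.00% of all probe sets, and 6 with the lot line as a block. The list was chosen with earlier results of these data known, so this count is a description. Squamous epithelium genes, of which 4 of 9 were on the array, summed to 11140 to 11594 in spontaneous breathing with 100% oxygen and to between 1468 and 4538 elsewhere. Krt4 and Sprr1a made most of that highest sum, with means of 6557 and 3955. With oxygen in spontaneous breathing 1 of the 3 tested was called higher and 0 lower, against 7.06% and 9.71% of all probe sets. Krt5, not tested and named after its values were seen, was highest in mechanical ventilation with 21% oxygen, with a mean of 702.8. Alveolar epithelium genes, 9 of 13 on the array, summed to 78760 to 91436 in spontaneous breathing with 21% oxygen and to 42216 to 47574 in mechanical ventilation with 100% oxygen. Between these groups 0 of the 9 tested genes were called higher and 4 lower (limma, adjusted p under 0.05). Of all 5244 tested probe sets 393 were called higher and 368 lower. Aqp5 and Scnn1a, named after their values were seen, had means of 1258 and 1413, and of 4067 and 3968, in these groups. Macrophage genes, 4 of 10 on the array, summed to 12084 to 16381 and to 7074 to 7154 in the same 2 groups. The 3 tested genes did not share that order. Lyz2 had means of 11330 and 3751 there, Acp5 2594 and 2979, and Ctsk 177.8 and 286.4. The part of these cell types in the levels of Car2, Car3 and Car4 was not tested.

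Set beside each other, the 5 probe sets had samples apart in 5 of 5 cases for oxygen in spontaneous breathing, where 60.9% of all tested probe sets did, and in 5 of 5 for oxygen in mechanical ventilation, where 71.2% did. For ventilation at 21% oxygen it was 5 of 5 against 61.7%, and for ventilation at 100% oxygen 3 of 5 against 65.7%. The choice of the genes used these differences, so nothing is read from the counts. The interaction, the ventilation difference at 100% oxygen minus that at 21%, was 0.71 ± 0.17 for S68245_g_at and 0.42 ± 0.27 for S68245_at. It was −0.29 ± 0.15 and −0.67 ± 0.17 for the 2 probe sets of Car2 and −1.46 ± 0.34 for Car3. With the lot line as a block these were 0.52 for S68245_g_at, −0.22 for X58294_at of Car2 and −0.58 for Car3. From spontaneous breathing with 21% oxygen to mechanical ventilation with 100% oxygen, X58294_at of Car2 was higher by 0.56 and U60578cds_s_at by 0.50, Car3 was lower by −1.72, and Car4 was lower by −1.06 on S68245_g_at and −1.07 on S68245_at. This pair of groups shares the lot line. Within its arrays alone the difference was 0.54 for X58294_at, −1.82 for Car3 and −0.98 for S68245_g_at.

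**Figure D3:**
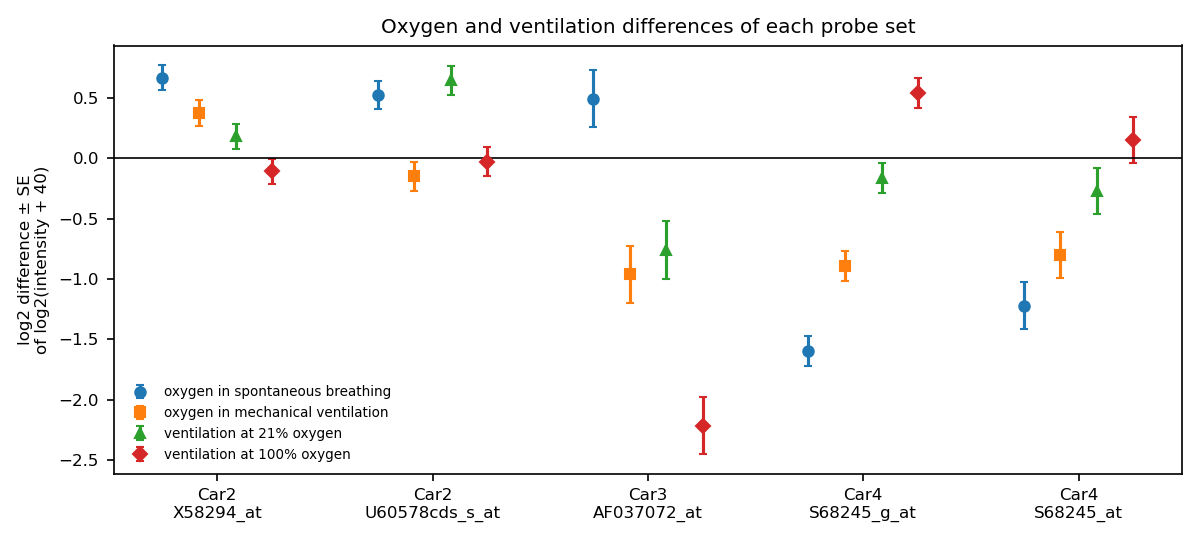
Log2 difference (y axis, log2 of intensity plus 40) of each of the 5 probe sets (x axis) in the 4 comparisons of 1 factor at 1 level of the other, with error bars of 1 SE from the limma fit over 8 samples. Car4 lies below 0 for oxygen in both ways of breathing, and the 2 probe sets of Car2 lie on opposite sides of 0 for oxygen in mechanical ventilation.

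Over the 8 samples X58294_at of Car2 had a Pearson r of −0.966 with S68245_g_at of Car4 and of −0.956 with S68245_at. For U60578cds_s_at, the other Car2 probe set, the values were −0.446 and −0.520. These describe probe sets on shared arrays in 4 groups, and the 2 probe sets of Car2 differ in them. Car3 had an r of −0.08 with X58294_at and of −0.10 with S68245_g_at.

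By the same measure over 3180 other genes, the genes most like Car2 (X58294_at) were Cryab with an r of 0.988, Ddx50 with 0.985, Chordc1 with 0.976, P4ha1 with 0.974 and Unc50 with 0.970. Cryab encodes a small heat shock protein, and its group means were 2684, 5238, 3370 and 4722. P4ha1, a subunit of the enzyme that hydroxylates proline in collagen, had means of 5807, 10342, 5977 and 9480. Both shared with X58294_at the higher level in the 2 groups with 100% oxygen, which U60578cds_s_at of Car2 did not show. The genes most like Car4 (S68245_g_at) were Cyp2e1 with 0.976, Ctbp1 with 0.970, Clpb with 0.964, Ddrgk1 with 0.960 and Slc27a1 with 0.958. Cyp2e1, a cytochrome P450, had means of 2836, 1421, 2743 and 1546, and Slc27a1, a fatty acid transporter, had means of 436.4, 65.6, 396.7 and 163.8. Those most like Car3 were Ndufaf3 with 0.960, RT1-Ba with 0.945, Id3 with 0.908, Aprt with 0.906 and P4hb with 0.902. Ndufaf3, an assembly factor of mitochondrial complex I, had means of 1126, 1605, 661.0 and 309.4. These genes were ranked on the values shown, so the likeness is a description.

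Of 13 other carbonic anhydrases listed, 3 had a probe set, 2 were tested, and 0 of 2 passed in any comparison. Car5a, a mitochondrial form, read 158.6 and 124.2, then 130.3 and 211.6, then 192.4 and 252.5, then 93.6 and 179.0 in the group order used above, and its smallest adjusted p over the 6 contrasts fitted was 0.19. Car5b, the other mitochondrial form, read 367.2 and 203.6, 411.2 and 221.8, 375.7 and 426.4, and 313.5 and 334.1, with a smallest adjusted p of 0.35. In both, the samples of some groups differed by about as much as the group means did, or more. Car6, the secreted form of saliva, was below the filter's limit and was not tested, with group means between −6.68 and 26.3.

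Transporters that carry bicarbonate, protons or lactate were called in numbers near the share over all probe sets. Of 34 listed genes 18 were on the array and 12 were tested. Ventilation at 21% oxygen called 0 higher and 1 lower, against 7.00% and 7.49%, with a median of −0.29, and 2 were called higher without sample a of spontaneous breathing. Ventilation at 100% oxygen called 3 higher and 1 lower, against 16.6% and 10.4%, with a median of 0.26, and the 3 became 1 with the lot line as a block. The 3 was also 1 without sample b of spontaneous breathing, or without either ventilated sample, with 100% oxygen. Oxygen in spontaneous breathing called 0 higher and 1 lower, against 7.06% and 9.71%, with a median of 0.00, and oxygen in mechanical ventilation 2 higher and 0 lower, against 20.7% and 14.4%, with a median of 0.29. The medians over all tested probe sets were −0.06, 0.13, −0.05 and 0.14. Slc4a1, the chloride and bicarbonate exchanger of red cells, had means of 849.8 ± 70.7, 1001 ± 19.8, 523.7 ± 10.0 and 996.9 ± 36.7 (SD, n = 2). It rose with oxygen in mechanical ventilation by 0.87 ± 0.13, with an adjusted p of 0.0026. It fell with ventilation at 21% oxygen, −0.66 ± 0.13 with an adjusted p of 0.018, a call lost with the lot line as a block (0.47), without sample b of spontaneous breathing (0.078) and without either ventilated sample (0.073 and 0.090).

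Slc16a1, a carrier of lactate with a proton, rose with ventilation at 100% oxygen by 1.49 ± 0.24, with an adjusted p of 0.0056, between means of 245.3 ± 102 and 737.7 ± 54.2 (SD, n = 2). Slc4a2, a widespread exchanger of chloride for bicarbonate, had means of 1724 ± 91.1, 1016 ± 60.1, 1230 ± 189 and 1530 ± 76.2. It fell with oxygen in spontaneous breathing, −0.74 ± 0.14, with an adjusted p of 0.013. That call was lost with the lot line as a block (0.11), without sample b of spontaneous breathing with 21% oxygen (0.052) and without either sample with 100% oxygen (0.069 and 0.051). Its rise with ventilation at 100% oxygen, 0.57 ± 0.14 with an adjusted p of 0.023, was lost under quantile scaling (0.11), with the lot line as a block (0.074) and when any 1 of the 4 samples compared was left out (0.056 to 0.11). Slc4a7, a sodium and bicarbonate cotransporter, rose with oxygen in mechanical ventilation by 0.49 ± 0.16, with an adjusted p of 0.042. That call was lost under quantile scaling (0.21) and when any 1 of the 4 samples compared was left out (0.054 to 0.22). The other 2 genes called, Slc4a3 as higher and Aqp1 as lower with ventilation at 100% oxygen, are named here after their values were seen. Slc4a3 had an adjusted p of 0.043, which was 0.073 under quantile and cyclic loess scaling, 0.18 without the filter, 0.25 with the lot line as a block and 0.15 without sample b of spontaneous breathing with 100% oxygen. Aqp1, a water channel, had an adjusted p of 0.048, which was 0.25 and 0.35 under these scalings, 0.095 without the filter, 0.18 with the lot line as a block, and 0.087 to 0.17 when any 1 of the 4 samples compared was left out.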

How the data were processed

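The deposited intensity values, on a linear scale, were used as the authors gave them; how they were made from the scans is not given in the sources used here. Values below 0 were set to 0, 40 was added, and log2 was taken, with no further scaling. The 2 arrays of the repeated sample were averaged. The 59 control probe sets and the 40% of the rest with the lowest mean were left out, which left 5244 probe sets of 3181 genes. A group-means model over 8 samples with 4 residual degrees of freedom was fitted by limma (version 3.58.1; R version 4.3.3; eBayes with trend), with Benjamini-Hochberg adjustment over the tested probe sets of each contrast and a threshold of 0.05. The procedure was tested on simulated data with independent noise and no effect of the lot line, so that test cannot show how the line affects these data. Means and SDs in the text are of intensities, and differences and SEs are of log2 values.

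In the array's annotation 7006 probe sets had a single symbol, 308 had several and 1426 had none; 6985 were matched by gene number to the reference table, and no probe set with several symbols named Car2, Car3 or Car4. A gene was represented by its brightest probe set. The genes and the marker lists were chosen with earlier results of these data known. Beside Car2, Car3 and Car4 the text names the other carbonic anhydrases on the array, the 4 transport genes with the smallest adjusted p over the 6 contrasts, among the first 3 tested genes of each marker list those shown, and the 5 genes with the highest Pearson correlation to each of the 3. The promoter comes from RefSeq (GRCr8), whose table matched 1 of the 3 genes. The letters a and b were not used to pair the samples in the main fit. Deviations of equally lettered samples correlated between −0.128 and 0.07, which cannot show whether the design paired them. Alternatives were quantile and cyclic loess scaling, an offset of 8 or 80, a filter of 60% or none, either array of the repeated sample, a block on the letter, a block on the lot line, a fit without the trend, only the groups compared, only arrays with or without the lot line, another probe set, and each sample left out. Figures used matplotlib 3.10.9 in Python 3.11.15.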

Additional observations from a re-analysis of the deposited data

Results flagged for a closer look

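For 4 probe sets the samples moved one way at 1 level of a factor and the opposite way at the other, with no overlap. These differences were not tested, and the share of all tested probe sets that did so was not counted. In a single comparison 60.9% to 71.2% of all tested probe sets had samples apart. The choice of the genes used these values, so nothing is read from the count. The oxygen difference of Car3 was among the 4, with an interaction of −1.46. With the lot line as a block that oxygen difference was 0.0046 in spontaneous breathing. Another was the oxygen difference of Car2 on U60578cds_s_at, with −0.67. The ventilation difference of Car2 on X58294_at, with −0.29, was 0.18 ± 0.11 at 21% oxygen and −0.11 ± 0.11 at 100%. The last was the ventilation difference of Car4 on S68245_g_at, with 0.71.

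Among the genes covered by the rule for named genes, the interaction passed an adjusted p under 0.05 in limma for 15; the marker lists hold further genes that passed and are not named here. In the endothelial list it was 2.20 for Ace, 1.44 for Kdr and 0.99 for Pecam1. Transport genes gave 0.64 for Slc4a1 and 1.05 for Slc4a2. Muscle genes gave −6.02 for Tnnc2, −4.00 for Ckm and −4.18 for Myl11, and fat genes −8.32 for Ucp1 and −6.53 for Fabp4. Alas2 of red cells gave −0.83. The T lymphocyte genes Cd3g, Thy1 and Cd3d gave −3.92, −5.32 and −4.34, and Krt4, a keratin of squamous epithelium, gave −2.44. The lot line follows the same pattern of groups except within the repeated sample. With it as a block 6 of the 15 calls were lost, with limma adjusted p-values of 0.93 for Slc4a1, 0.13 for Slc4a2, 0.15 for Kdr, 0.52 for Pecam1, 0.21 for Alas2 and 0.28 for Cd3d.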

How the results depend on the processing

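Values are log2 differences unless called counts. The alternatives were run on the brightest probe set of each gene, and on these none changed the sign of a difference of Car2, Car3 or Car4. Reading the other Car2 probe set in place of the brightest reversed a sign, given next. The less bright probe sets of Car2 and Car4 were fitted only at the main setting, so how stable their signs are was not examined. The causes of the changes were not tested. On U60578cds_s_at the Car2 differences were 0.65 for ventilation at 21% oxygen, −0.028 at 100%, 0.52 for oxygen in spontaneous breathing, −0.15 in mechanical ventilation, which reverses the sign, −0.67 for the interaction and 0.50 for both factors. On S68245_at the Car4 differences were −0.27, 0.15, −1.22, −0.80 and 0.42 for the first 5 of these. Quantile scaling gave Car4 0.34 for ventilation at 100% oxygen, −1.04 for oxygen in mechanical ventilation, 0.55 for the interaction and −1.25 for both factors, and Car2 0.58 and 0.30 for oxygen in spontaneous breathing and mechanical ventilation and 0.44 for both factors. Cyclic loess gave Car4 0.40, −1.02, 0.55 and −1.17 for the same 4, Car2 0.43 for oxygen in mechanical ventilation and 0.63 for both factors, and Car3 −1.78 for the interaction. These scalings moved the median of all probe sets from 0.13 to −0.01 and −0.03 for ventilation at 100% oxygen, and from 0.14 to 0.01 and −0.01 for oxygen in mechanical ventilation. The calls higher and lower moved from 868 and 545 to 601 and 520 (quantile) and 552 and 476 (loess) in the first, from 1085 and 756 to 816 and 864 and 773 and 825 in the second, and from 888 and 551 to 714 and 680 and 656 and 683 for the interaction.

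With the lot line as a block the counts of probe sets called were 106 for ventilation at 21% oxygen (760 without the block), 477 at 100% (1413), 128 for oxygen in spontaneous breathing (879), 898 in mechanical ventilation (1841) and 159 for the interaction (1439). In that order Car3 gave −1.25, −1.83, 0.0046, −0.57 and −0.58. Car4 gave −0.031 for ventilation at 21% oxygen, −1.47 for oxygen in spontaneous breathing and 0.52 for the interaction, and Car2 0.14, 0.62 and −0.22 for the same 3. Arrays without the line alone gave counts of 474 for ventilation at 100% oxygen and 930 for oxygen in mechanical ventilation, with Car3 at −1.83 and −0.57. Without the filter the counts were 490 for ventilation at 21% oxygen, 796 at 100%, 540 for oxygen in spontaneous breathing and 397 for both factors (761 with it).

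Leaving out each sample in turn gave counts of 228 to 709, 474 to 1423, 370 to 796, 956 to 1904 and 312 to 683 for the 4 comparisons of 1 factor and for both factors. Car2 ranged from −0.16 to −0.061 for ventilation at 100% oxygen, from 0.62 to 0.72 for oxygen in spontaneous breathing and from −0.34 to −0.24 for the interaction. Car4 ranged from 0.44 to 0.65 for ventilation at 100% oxygen, from −0.997 to −0.785 for oxygen in mechanical ventilation, from 0.60 to 0.81 for the interaction and from −1.16 to −0.95 for both factors. Car3 ranged from −1.03 to −0.50 for ventilation at 21% oxygen and from 0.28 to 0.71 for oxygen in spontaneous breathing. A group left with 1 sample was assumed to vary like the others.

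With the letter as a replicate block the differences of the 3 genes were as fitted, and the counts were 586, 1213, 667 and 1661 for the 4 comparisons, within 1.5 times of the counts without it. Of the calls given for named genes, 3 were lost, with adjusted p-values from limma of 0.066 for Slc4a7 with oxygen in mechanical ventilation, 0.073 for Aqp1 with ventilation at 100% oxygen and 0.065 for the interaction of Slc4a1.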
